A study of Mus musculus with 3 samples.

Results

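Hemostasis and fibrinolysis genes of the vascular wall were taken as 9 genes chosen by symbol from the 18287 genes listed in the deposited tables: F3, F8 and Vwf on the procoagulant side, Thbd, Procr and Tfpi on the anticoagulant side, and Plat, Plau and Plaur in fibrinolysis. All 9 were listed in both comparisons with control. The rule names symbols only, but the genes and the wider lists below were chosen with earlier results of these data known. Shares of all genes set beside them therefore describe and do not test an excess. Polyadenylated RNA was sequenced from commercially obtained endothelial cells of mouse aorta. One library is labelled control. Another was from cells exposed for 30 min to 5 mU/mL glucose oxidase (GO), which oxidizes glucose and releases hydrogen peroxide. The last was from cells that received GO as above and 0.2 mM ethyl-2-hydroxybenzylamine (Et2HOBA, 24 h), a scavenger of reactive dicarbonyls that form when lipids are oxidized. The labels do not give the order of the exposures, and no culture with Et2HOBA alone was analysed here.

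Each group had 1 library, so differences could not be set against a spread between replicates, and conditions were not tested. The 95% intervals printed with fold differences are exact (Clopper-Pearson), rest on the reads of both libraries and hold counting error alone; nothing says whether the libraries came from separate cultures. The libraries held between 35005089 and 40212212 reads over the listed genes. For the GO library, counts were worked back from the deposited log2 differences. All 10 endothelial markers were listed and none was at 0, with summed normalized counts of 339089 in control, 254636 after GO and 267806 with Et2HOBA.

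The endothelium keeps blood fluid while holding the means to stop bleeding. Tissue factor starts coagulation, factor VIII is a cofactor that speeds it, and von Willebrand factor tethers platelets and carries factor VIII in plasma. Against them, thrombomodulin and the endothelial protein C receptor help to activate protein C, and tissue factor pathway inhibitor blocks the initiating complex. Plasminogen activators generate plasmin, which dissolves fibrin, and urokinase acts at the cell surface when bound to its receptor.

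Promoter sequence was available from RefSeq (GRCm38.p6) for 5 of the 9 genes: F3, Plaur, Procr, Tfpi and F8. The 3 with a match to the AP-1 motif TGANTCA in the 250 bases before the start site were F3, Plaur and Procr, and these are shown with the match in capitals. The windows are chr3:121723287-121723536 for F3, chr7:24462233-24462482 for Plaur and chr2:155750967-155751116 for Procr, all on the plus strand, 5′ to 3′. The Procr window stops at 150 bases because GENCODE M21 places an exon of the gene from there on.
F3: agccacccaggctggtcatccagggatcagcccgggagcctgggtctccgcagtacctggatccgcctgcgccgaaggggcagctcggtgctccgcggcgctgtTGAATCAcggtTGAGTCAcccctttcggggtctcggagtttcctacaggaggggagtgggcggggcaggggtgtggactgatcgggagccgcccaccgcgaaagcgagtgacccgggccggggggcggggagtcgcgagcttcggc
Plaur: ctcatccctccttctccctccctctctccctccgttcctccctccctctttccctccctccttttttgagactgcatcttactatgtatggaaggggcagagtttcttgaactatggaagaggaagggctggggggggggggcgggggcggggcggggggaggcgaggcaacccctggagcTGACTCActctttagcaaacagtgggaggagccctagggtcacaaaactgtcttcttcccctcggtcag
Procr: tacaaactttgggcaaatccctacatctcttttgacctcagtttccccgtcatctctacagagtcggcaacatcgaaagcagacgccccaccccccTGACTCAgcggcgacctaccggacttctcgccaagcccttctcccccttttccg

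On either strand, 6.75% of the 32851 promoter windows of 250 bases in the RefSeq table held TGANTCA. F3 had 2 matches, from 146 to 140 and from 135 to 129 bases before the start site, Plaur had 1, from 69 to 63, and Procr had 1, from 154 to 148. The Procr match lies within a match to the antioxidant response element core TGACNNNGC, which 10.2% of windows held. The F8 window and both Tfpi windows had no match to TGANTCA. GENCODE M21 places an exon of F8 at the first base of its window, so that window lies within the annotated gene. Its lack of a match says nothing of sequence before the annotated start of F8. The SP1 motif GGGCGG, in 32.7% of windows, was found 3 times in F3, 3 times in Plaur, where matches overlap, and 1 time in each Tfpi window. Of the 6 other motifs searched, EGR1 (GNGGGGGNG, 17.0% of windows) had 6 overlapping matches in Plaur, ATF4 C/EBP composite (TTGCATCA, 0.79%) had none in any window of the 9 genes, and NF-kappaB (45.8%), KLF (CACCC, 52.0%), ETS (GGAA, 93.5%) and GATA (GATAA, 22.6%) are frequent in general. These matches describe letters only, and binding was not measured.

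The 9 genes split into a group far from control and a group near it. After GO, 3 of 9 had a log2 ratio of at least 1 in size, Plaur higher and F8 and Vwf lower, against 12.7% of the 18287 listed genes and 9.3% of the 13285 protein-coding genes. Log2 ratios were taken after adding 10 to each normalized count, so they understate differences of low genes. With Et2HOBA added, 4 of 9 were past this limit against control, Plaur and F3 higher and F8 and Vwf lower, against 14.7% of listed and 16.6% of protein-coding genes. By direction, 4.07% of listed genes were past the limit as higher and 8.6% as lower after GO, and 6.66% and 8.04% with Et2HOBA; among protein-coding genes these shares were 4.53% and 4.76%, then 7.33% and 9.3%. None of the 9 passed it between the treated libraries, where 8.55% of listed genes and 3.32% of protein-coding genes did (6.39% higher and 2.15% lower, and 0.971% and 2.35%). Both comparisons with control use the same control library. The median log2 ratio of the 9 was 0.04 (GO), -0.16 (GO plus Et2HOBA) and 0.22 (GO plus Et2HOBA against GO), while the median of all listed genes was -0.01, -0.00015 and 0.

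**Figure D1:**
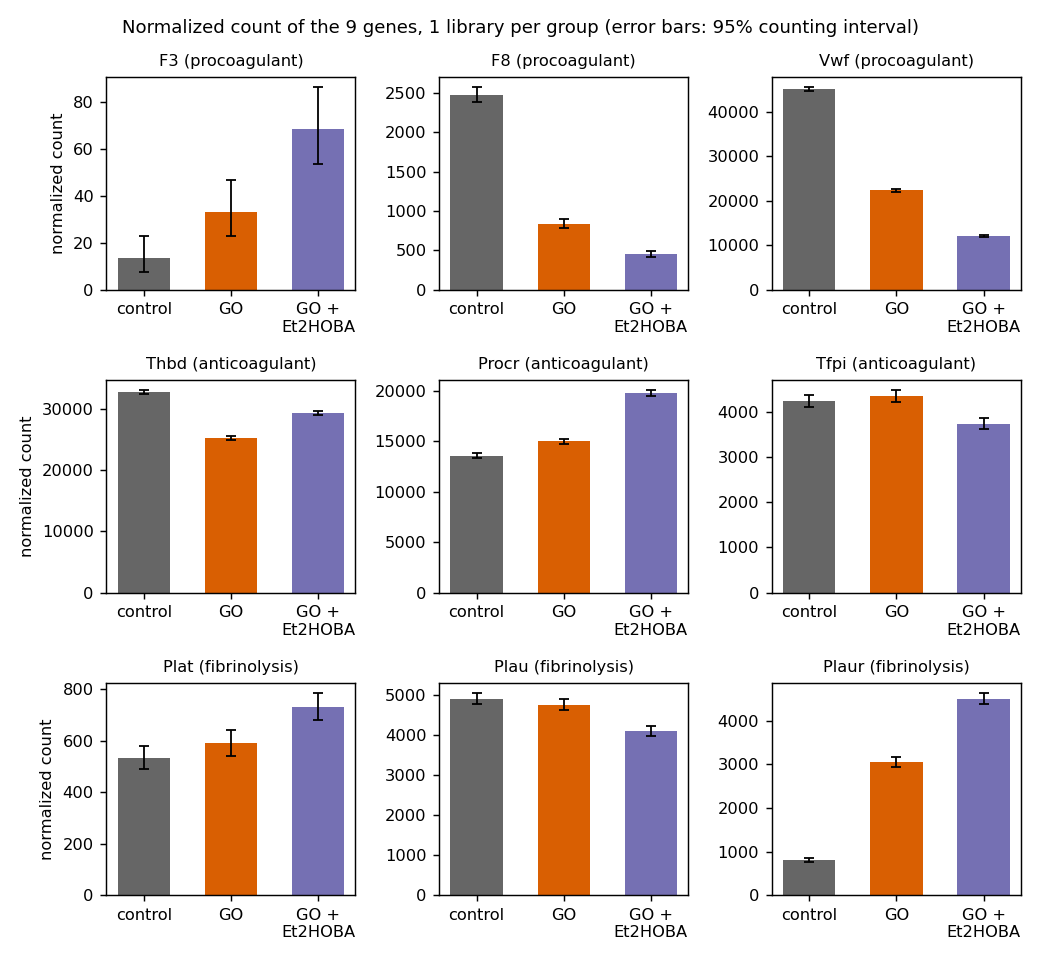
Normalized count (y axis, reads divided by the library's size factor, starting at 0) of each of the 9 genes in the control, glucose oxidase (GO) and GO plus Et2HOBA libraries, 1 library each. Error bars are exact 95% counting intervals. Plaur and F3 step up from left to right and F8 and Vwf step down, while Tfpi and Plau stay within 0.835-fold to 1.03-fold of control.

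Vwf (ENSMUSG00000001930.17, GRCm38 chromosome 6, 125546774 to 125686679), the platelet-tethering glycoprotein stored in Weibel-Palade bodies, had 46607 reads in control, 21567 after GO and 12545 with Et2HOBA. Control was the highest and the library with Et2HOBA the lowest. Relative to control the normalized level was 0.495 after GO (95% interval 0.487 to 0.503) and 0.267 with Et2HOBA (0.262 to 0.273). The log2 ratio after GO, -1.02, lies just past the limit. Between the treated libraries the level with Et2HOBA was 0.541 of that without it (0.529 to 0.553). Among protein-coding genes, 4.61% had a lower log2 ratio than Vwf after GO and 3.15% with Et2HOBA.

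F8 (ENSMUSG00000031196.13, chromosome X, 75172715 to 75382615), which encodes coagulation factor VIII, had 2557, 809 and 471 reads in control, GO and GO plus Et2HOBA. The order of the libraries was the one seen for Vwf. Its level was 2.96-fold lower than control after GO (2.73 to 3.20) and 5.46-fold lower with Et2HOBA (4.95 to 6.04). No protein was measured, and in these bulk libraries fewer cells of a type and less RNA per cell cannot be told apart.

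Several endothelial markers lay on the same side of control as Vwf and F8, and others did not. Tek, the angiopoietin receptor, had log2 ratios to control of -1.14 after GO and -2.01 with Et2HOBA, and Kdr, a receptor for vascular endothelial growth factor, had -1.06 and -1.36. Cldn5, a tight junction protein, had -0.91 and -1.73, and Erg, an endothelial transcription factor, -0.51 and -1.14. Pecam1 (-0.38 and -0.35), Egfl7 (-0.23 and -0.24), Tie1 (-0.66 and -0.88) and Cdh5 (-0.20 and 0.19) did not pass the limit. Emcn (0.33 and 0.55) and Nos3 (0.73 and 1.29) lay above control. Of the lymphatic endothelial markers, 2 of 4 were listed, and Prox1 and Pdpn were not. The listed ones summed to 18313, 29524 and 39497 normalized counts. The log2 ratios were 1.02 and 1.48 for Lyve1 and -0.12 and 0.13 for Flt4. The part of these markers' differences in the Vwf and F8 values was not tested.

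Because a ratio of 2 genes within a library involves no scaling, F8 was also set against Vwf. There were 5.49 F8 reads per 100 Vwf reads in control, 3.75 after GO and 3.75 with Et2HOBA. F8 was thus lower relative to control than Vwf was after GO, by a factor of 0.684 (0.630 to 0.742). Between the treated libraries the proportion of F8 to Vwf differed by a factor whose interval ran from 0.890 to 1.13, so a difference inside it was not detectable at this depth.

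F3 (ENSMUSG00000028128.13, chromosome 3, 121723537 to 121735048), which encodes tissue factor, was the least abundant of the 9, with 14 reads in control, 32 after GO and 71 with Et2HOBA. Control was lowest and the library with Et2HOBA highest. The level was 2.44-fold that of control after GO, with a wide interval of 1.27 to 4.96, and 5.04-fold with Et2HOBA (2.82 to 9.68). With Et2HOBA it was 2.06-fold the level without it (1.34 to 3.24). The log2 ratios were 0.87 after GO and 1.73 with Et2HOBA; the first became 1.23, past the limit, with a pseudocount of 1, and the authors' deposited table gives 0.29 for it and 1.002, at the limit, with Et2HOBA.

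Smooth muscle cells, fibroblasts and monocytes are also known to make tissue factor, so their marker levels stand beside it. The 4 listed smooth muscle markers of 5 summed to 42.6, 73.5 and 95.3 normalized counts in control, GO and GO plus Et2HOBA. Myh11 had 19, 35 and 73 reads, Acta2 had 8, 18 and 13, Tagln 9, 9 and 4, and Des 8, 9 and 9. The 3 listed fibroblast markers of 6 summed to 133, 1416 and 2738, with 107, 1325 and 2821 reads of Pdgfra, while Col1a1 had 28, 30 and 23 reads and Col3a1 had 2, 12 and 0. Among leukocyte markers, 3 of 6 were listed and summed to 8146, 17771 and 26858, mostly from Cd68 with 8215, 17067 and 27799 reads; Csf1r had 6, 12 and 10 reads and Lyz2 had 186, 76 and 86. No listed marker of these 3 cell types was at 0 apart from Col3a1 with Et2HOBA. The markers not listed were Cnn1 for smooth muscle, Col1a2, Dcn and Lum for fibroblasts, and Ptprc, Itgam and Adgre1 for leukocytes. The part of such cells in the F3 reads was not tested.

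Of the anticoagulant genes among the 9, Thbd, Procr and Tfpi, none passed the limit in any comparison. Thbd (ENSMUSG00000074743.4, chromosome 2, 148404466 to 148408188), the single-exon gene of the thrombin receptor thrombomodulin, had 33844 reads in control, 24374 after GO and 30529 with Et2HOBA. It was lowest after GO, at 0.770 of control (0.757 to 0.783), and stood at 0.896 with Et2HOBA (0.883 to 0.910). Between the treated libraries it was 1.16-fold higher with Et2HOBA (1.14 to 1.18). With total-count scaling the log2 ratios to control moved from -0.38 to -0.43 after GO and from -0.16 to -0.31 with Et2HOBA.

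Procr (ENSMUSG00000027611.12, chromosome 2, 155751117 to 155755471), the gene of the endothelial protein C receptor, had 14019, 14512 and 20593 reads in control, GO and GO plus Et2HOBA. The library with Et2HOBA stood above the other two, at 1.46-fold of control (1.43 to 1.49) against 1.11-fold after GO alone (1.08 to 1.13). Total-count scaling moved its log2 ratio with Et2HOBA from 0.55 to 0.39, and after GO from 0.15 to 0.09. In reads there were 241 Thbd per 100 Procr in control, 168 after GO and 148 with Et2HOBA, so the partners in protein C activation did not keep their proportion.

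Tfpi (ENSMUSG00000027082.15, chromosome 2, 84432855 to 84476775), which encodes the inhibitor of the tissue factor complex, had 4382, 4206 and 3895 reads in the same order. Its level after GO was 1.03-fold that of control with an interval that included equal levels (0.983 to 1.07), and the sign of this log2 ratio, 0.04, turned to -0.02 with total-count scaling and to -0.0012 with size factors from protein-coding genes. With Et2HOBA it was 0.883 of control (0.846 to 0.922). Set against its target, there were 0.319 F3 reads per 100 Tfpi reads in control, 0.761 after GO and 1.82 with Et2HOBA, which is 2.38-fold the control proportion (1.23 to 4.84) after GO and 5.71-fold with Et2HOBA (3.18 to 10.98).

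**Figure D2:**
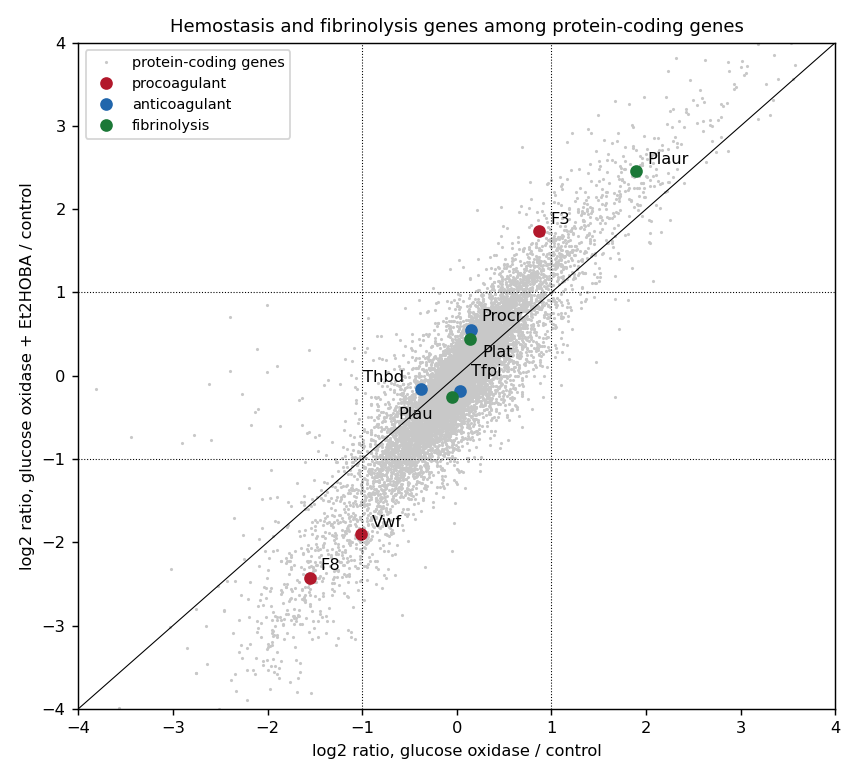
Log2 ratio to control of each protein-coding gene (grey) and of the 9 genes (coloured by role), after GO (x axis) and after GO plus Et2HOBA (y axis); 39 protein-coding genes lie outside the range of 4 in either direction. Dotted lines mark the limit of 1 and the solid line equal ratios. Plaur and F3 lie to the upper right, F8 and Vwf to the lower left, and the other genes near the centre; both axes share the control library.

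In fibrinolysis the receptor stood far from control and the plasminogen activators nearer to it. Plaur (ENSMUSG00000046223.10, chromosome 7, 24462484 to 24475968), the gene of the urokinase receptor that holds plasminogen activation at the cell surface, had 837 reads in control, 2944 after GO and 4678 with Et2HOBA. Both treated libraries were above control and the one with Et2HOBA was highest. Its level was 3.76-fold that of control after GO (3.48 to 4.06) and 5.55-fold with Et2HOBA (5.16 to 5.98). The log2 ratios were 1.90 and 2.46, and 1.18% and 1.13% of protein-coding genes had higher ones.

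Plau (ENSMUSG00000021822.3, chromosome 14, 20836660 to 20843385), which encodes urokinase, the ligand of that receptor, had 5070, 4592 and 4263 reads. After GO it was 0.968 of control, with an interval that included equal levels (0.930 to 1.01), and with Et2HOBA 0.835 (0.802 to 0.870). There were 16.5 Plaur reads per 100 Plau reads in control, 64.1 after GO and 109.7 with Et2HOBA. The receptor to ligand read ratio was thus 3.88-fold that of control after GO (3.56 to 4.24) and 6.65-fold with Et2HOBA (6.11 to 7.24).

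Plat (ENSMUSG00000031538.6, chromosome 8, 22757727 to 22782844), the gene of tissue plasminogen activator, had 551 reads in control, 569 after GO and 759 with Et2HOBA. The ratio to control was 1.37 with Et2HOBA (1.22 to 1.53) and 1.10 after GO alone (0.980 to 1.24). Only the second counting interval included equal levels. With Et2HOBA the log2 ratio was 0.45, and 0.30 with total-count scaling. Plat and Plau therefore lay on opposite sides of control with Et2HOBA.

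Levels of different genes were compared as normalized count per kilobase of merged exon. In control the order from high to low was Thbd (8809), Procr (6689), Vwf (2811), Plau (2076), Tfpi (777), Plaur (309.9), F8 (250.2), Plat (85.6) and F3 (5.37). After GO Procr (7402) lay above Thbd (6782), and Plau (2009.6) above Vwf (1391). With Et2HOBA the order was Procr (9762), Thbd (7895), Plau (1734), Plaur (1721), Vwf (752), Tfpi (686), Plat (117), F8 (45.8) and F3 (27.1). Neighbours whose counting intervals overlapped were Plat and F8 after GO (86.8 to 103 and 78.9 to 90.6) and Plau and Plaur with Et2HOBA (1682 to 1787 and 1672 to 1771). The place of Vwf depends on the length used, since its merged exons span 16064 bases and its longest transcript 8834; per kilobase of that transcript it had 5112, 2529 and 1367, which puts it above Plau (2031) after GO. By the same length Plaur (2242) lay above Plau (1753) with Et2HOBA, the reverse of the order by merged exon. By share of reads, the 9 genes together took 0.300% of the control library, 0.210% of the GO library and 0.193% of the library with Et2HOBA, and Vwf made up 43.2%, 29.3% and 16.1% of those reads.

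**Figure D3:**
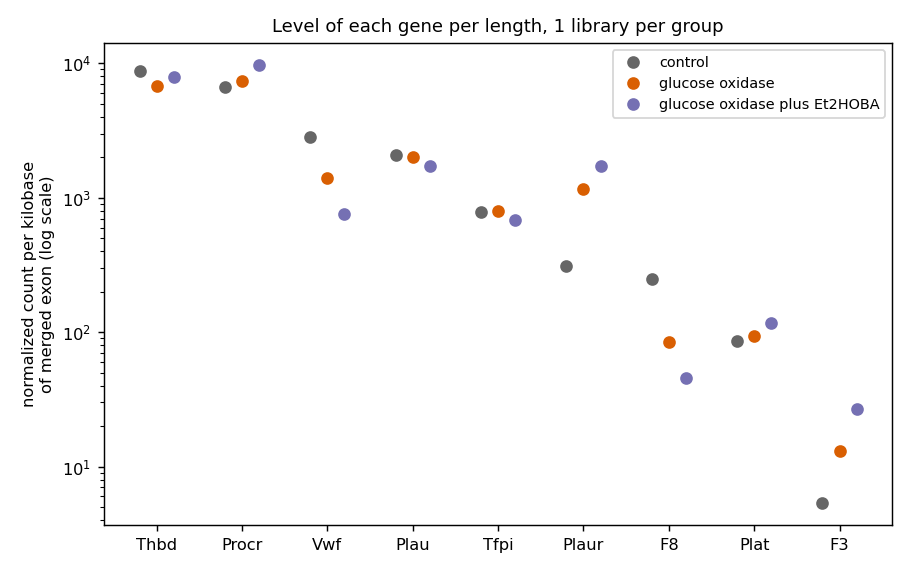
Normalized count per kilobase of merged exon (y axis, log scale) of the 9 genes in the 3 libraries, ordered by the control level, 1 point per library. Thbd and Procr are the highest in each library and F3 the lowest; Vwf goes from 2811 to 752 and Plaur from 309.9 to 1721.

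The wider pathway was described with 7 lists holding 63 genes, of which 42 were listed and the other 21 were not analysed here. Besides the 9 genes, 33 remained, and 13 of these share some 50-base stretch with another annotated gene, which none of the 9 does. After GO 5 of the 33 were higher and 3 lower past the limit, against 12.7% of all listed genes in either direction, with a median log2 ratio of -0.11. With Et2HOBA 8 were higher and 8 lower, against 14.7% of all listed genes, with a median of -0.07. Between the treated libraries 3 were higher and 2 lower, against 8.55%, with a median of 0.06. The 33 are all protein-coding, and among protein-coding genes the shares were 9.3% after GO, 16.6% with Et2HOBA and 3.32% between the treated libraries. The last was 0.971% higher and 2.35% lower. The lists that follow hold few genes. Their counts stand against the same shares, 12.7% of all listed and 9.3% of protein-coding genes after GO. With Et2HOBA these shares were 14.7% and 16.6%.

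Among inhibitors of fibrinolysis, none of the 4 genes described was past the limit after GO. With Et2HOBA 2 of 4 were, both higher, and the list medians were 0.42 and 0.60. These medians include Serpini1 (13, 9 and 12 reads) and Serpinf2 (8, 8 and 9) in control, GO and GO plus Et2HOBA. Serpine2, a serine protease inhibitor that acts on plasminogen activators and thrombin, had 296, 489 and 660 reads in control, GO and GO plus Et2HOBA, 1.77-fold (1.53 to 2.05) and 2.22-fold (1.93 to 2.55) the control level. Serpinb2, a serpin that inhibits urokinase, had 0, 9 and 41 reads, at least 3.21-fold and at least 13.6-fold higher against a control floor of 3 reads, with lower limits of the counting interval of 2.11 and 10.6, and its exons overlap those of Serpinb10. At that floor its log2 ratio after GO was 1.68, past the limit, against 0.95 with the pseudocount of 10, so 1 of the 4 would then be past it.

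In the list of fibrinolysis activators and receptors 2 of 7 were higher past the limit in each comparison with control, Plaur and Lrp1. Lrp1, an endocytic receptor that clears protease and inhibitor complexes, had 3271, 8897 and 13804 reads, 2.91-fold and 4.19-fold the control level. Of the 8 listed coagulation genes, F8 and F13a1 were lower in both comparisons with control, F13a1 with only 44, 9 and 6 reads, and F5, with 3, 16 and 10 reads, was higher after GO, at a ratio of 5.70 (1.63 to 30.5). The list medians were 0.04 and -0.03.

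Of 8 listed genes on the anticoagulant list, 1 was lower past the limit after GO and 2 with Et2HOBA, and none was higher. The medians were -0.30 and -0.38. Hs3st1, a sulfotransferase that makes antithrombin-binding heparan sulfate, had 486, 117 and 30 reads, 0.257 of control (0.208 to 0.316) and 0.0613 (0.0409 to 0.0887) in the same order. Gas6, lower past the limit with Et2HOBA, had 5765, 2736 and 1838 reads. It is a vitamin K-dependent ligand and not itself an anticoagulant, so the list counts and medians include a gene outside that role. Neither of the 2 listed thrombin and protease-activated receptors passed the limit in either comparison with control.

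Genes around von Willebrand factor storage and platelet tethering did not share one direction. After GO Vwf was lower and Selp higher past the limit among 8 listed, and with Et2HOBA 5 were lower and 2 higher. The higher genes with Et2HOBA were Selp and Angpt2, and Angpt2 had only 9, 17 and 38 reads. The medians were -0.46 and -1.38. Selp, the P-selectin gene whose product shares the storage granule with von Willebrand factor, had 5088, 18758 and 24449 reads, 3.94-fold and 4.77-fold the control level, while Vwf was lower in the same libraries; 14.2% of the stretches of Selp occur in other annotated genes. Rab27a, a small GTPase of that granule, had 771, 427 and 246 reads, and Mmrn2, a matrix protein of endothelium, 918, 474 and 341. Gp1ba, a platelet receptor for von Willebrand factor, had 121, 54 and 30 reads. Mmrn2 and Gp1ba are among the 5 lower with Et2HOBA, so that count and the medians are not of storage genes alone. Of 5 platelet and megakaryocyte markers, Ppbp was not listed. The 4 listed, Gp1ba among them, summed to 838, 579 and 578 normalized counts, with none at 0. They did not share one direction: Itga2b had 274, 304 and 325 reads, Pf4 had 290, 167 and 211, and Gp9 had 180, 34 and 34. The part of platelet RNA in the Vwf reads was not tested.

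Of the 5 genes of platelet inhibition, 2 were higher and 1 lower past the limit after GO, and 3 higher and 1 lower with Et2HOBA, with medians of 0.73 and 1.29. Ptgs2, a cyclooxygenase upstream of prostacyclin, had 1356, 3324 and 10705 reads. Ptgis, the prostacyclin synthase, had only 9, 5 and 12. Entpd1, which degrades ADP at the cell surface, had 9683, 4504 and 3860 reads, and Nt5e, which turns AMP into adenosine, 16, 47 and 136. Nos3, the endothelial nitric oxide synthase, had 30246, 47041 and 74692 reads, and 20.2% of its stretches occur in other annotated genes.

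**Figure D4:**
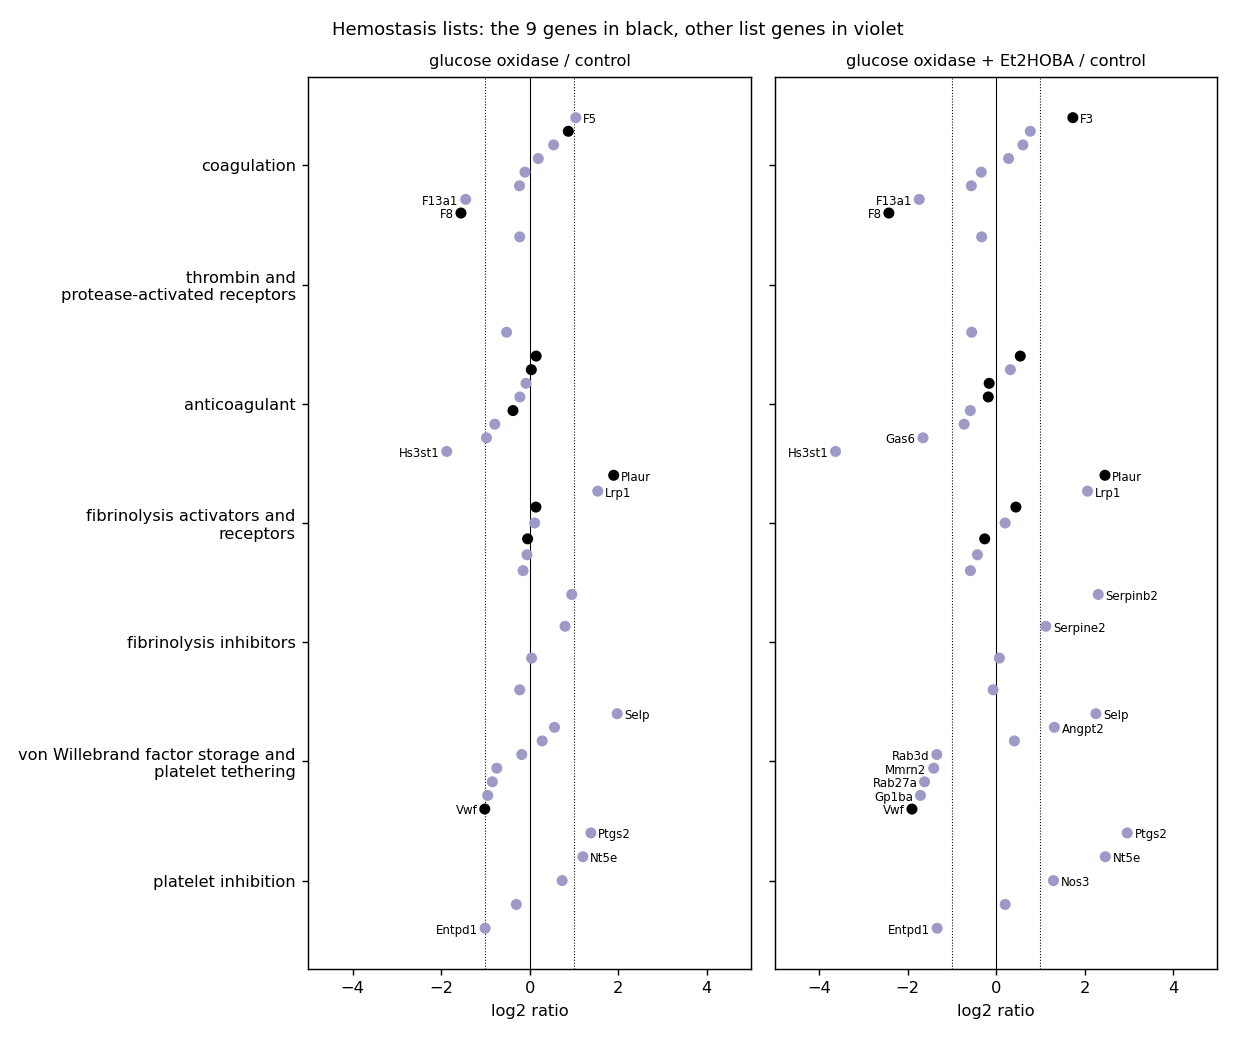
Log2 ratio to control (x axis) of each listed gene of the 7 hemostasis lists (rows), after GO (left) and GO plus Et2HOBA (right); the 9 genes are black and dotted lines mark the limit of 1. Names are given for genes past the limit. Selp, Lrp1 and Plaur lie to the right in both panels, and F8, Hs3st1 and Vwf to the left.

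The genes most like each of the 9 were sought among 10597 protein-coding genes with a mean normalized count of 100 or more, by distance over the 2 log2 ratios to control. Only 3 libraries enter, and both ratios have the same control. Nearest to Vwf were Kank3, Asb13 and Zwilch at distances of 0.0309, 0.0339 and 0.0677, and nearest to F8 were Ercc6l, Gpihbp1 and Sgo1 at 0.0352 to 0.0490. Gpr137b, Abcc4 and Hmga1 lay nearest to Plaur, at 0.0398 to 0.0715, and Socs2 nearest to F3, at 0.0595. Within a distance of 0.1 there were 13 such genes for Vwf, 7 for F8, 7 for Plaur and 1 for F3, against 384 for Tfpi and 424 for Plau.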

How the data were processed

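RNA of mouse aortic endothelial cells was sequenced in 3 groups of 1 library: control, glucose oxidase (GO), and GO plus Et2HOBA. Per the submitters' processing notes, mm10, STAR and featureCounts were used; versions and settings are not given in the sources used here. The authors deposited raw read counts and log2-scale normalized values for control and GO plus Et2HOBA, per the file headers, and log2 differences against control for GO and for GO plus Et2HOBA; a table of GO plus Et2HOBA against GO holds 7 genes and was not used for ratios. Of 18287 gene IDs, 17878 had the same version, and position, in GENCODE M21 (GRCm38).

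The log2 values deposited are an arcsinh transform of root counts with 1 constant per library. Solved for the unknown library, they gave whole reads, to within 0.01, for 100% of 18275 genes matched by symbol. The largest distance was 0.000138, and 3.31% gave whole reads with control counts raised by 1. The 12 genes whose listed symbol stood for more than 1 gene were assigned by whole reads. The inversion was also run on simulated data made with the same transform and constants. That run cannot show whether the transform holds for the deposited values. This transform shrinks low genes as a pseudocount of 202 would in the GO table and of 71.1 in the GO plus Et2HOBA table, so the tables are not on 1 scale.

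Size factors by the median of ratios over all 3 libraries were 1.03 (control), 0.965 (GO) and 1.04 (GO plus Et2HOBA), and log2 ratios used a pseudocount of 10. No count model was fitted. Intervals were computed in scipy 1.17.1, exact binomial for counts and folds and conditional odds ratio for gene pairs. No molecular identifiers are named in the sources used here. TMM factors came from edgeR 4.0.16. Lengths, exon overlaps and shared 50-base stretches came from GENCODE M21.

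Named genes were all 9, then, per list, at most 4 others past the limit in a comparison with control, by the larger ratio. The 3 nearest genes of each of the 9 were also named, and the text gives part. Some list genes with few reads were named besides these. One gene of the lists is not reported here and entered no list count. Members and lists were chosen with earlier results of these data known. Marker genes named singly were chosen after their values were seen. Alternatives were total-count and TMM scaling, a pseudocount of 1, the deposited scale, a limit of 0.5, a filter at a mean count of 10, protein-coding genes only and, chosen after seeing the data, size factors from protein-coding genes.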

Additional observations from a re-analysis of the deposited data

How the results depend on the processing

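The 27 log2 ratios of the 9 genes were recomputed under the alternatives, which gave 126 values. Of these, 104 moved by at most 0.5 times the log2 width of the counting interval, and 22 moved by more. Thbd and Procr did so under total-count scaling in each comparison. No ratio that was past the limit changed sign. The 2 sign changes both concern Tfpi after GO. F3 with Et2HOBA moved by over 1.5 times, from 1.73 to 1.002 on the authors' deposited scale. The number of the 9 past the limit stayed at 3 or 4 after GO and at 4 or 5 with Et2HOBA under each alternative run. Between the treated libraries it was 0, but 1 with a pseudocount of 1 (F3, 1.02) and 4 at a limit of 0.5. Over all listed genes the number past the limit was 2317 for GO, 2688 for GO plus Et2HOBA and 1563 for one against the other. It became 4243, 4494 and 3311 with a pseudocount of 1, and 6175, 7332 and 4670 at a limit of 0.5. On the authors' deposited scale it was 734 and 1768 against control, and over protein-coding genes 1235 after GO and 441 between the treated libraries. Total-count scaling moved the median of all genes with Et2HOBA by -0.13 and the share of calls that were higher from 45.3% to 35.0%. No paired analysis was possible because each group had 1 library, and for the same reason no library could be left out. Depth limits F3, F5, F13a1, Serpinb2, Angpt2, Serpini1, Serpinf2, Serpinc1 and Ptgis, whose counts reached at most 71 reads.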
